A study of Mus musculus with 98 samples.

Results

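The genes followed here are 9 components of the complement system, read across the stroma of the mouse thymus: the proteases C1ra and C1s1, the classical components C4b and C2, the central component C3, factor B (Cfb), the terminal component C7, and the regulators Serping1 and Cd55. They were taken by name, as 9 of the 39179 gene IDs of a bulk RNA-seq table, 9 of the 22231 genes of a droplet table that covers 5 ages, and 8 (all but C7) of the 20760 genes of a second droplet table from newborns. The study set the nonepithelial thymic stroma (NETS), meaning fibroblasts, mural cells, mesothelium, endothelium and neural crest cells, beside the thymic epithelial cells (TEC) that support and select developing T cells. The age series held 8 wild-type droplet libraries of live Ter119-CD45-EpCAM- cells, 1 each at E12.5 and E13.5 (embryonic days, both from pooled litters), and 2 each at E16.5, at birth (P0) and at 4 weeks. The newborn series held 6 droplet libraries of live Ter119-CD45- cells at P0, fixed in RNAprotect, 3 from Tbx1+/-Crkl+/- mice, in which the Tbx1 allele carries LacZ, and 3 from wild-type littermates. The bulk data held 84 wild-type libraries of live CD45- cells in 14 groups of 6. Sorted at P0 and at 4 weeks were cortical TEC (cTEC), medullary TEC (mTEC), CD31+ endothelium, Ly51+gp38- mural cells, and gp38+CD26+ and gp38+CD26- fibroblasts, which the study described as mainly capsular and mainly medullary. The mTEC sorted as mTEChi and mTEClo, in common usage those with high and low MHC class II, were taken at 4 weeks only. Each bulk group held 3 libraries whose titles had TXCK and 3 whose titles had DFCK. The sources used here say neither what these mean nor whether populations came from the same mice, so p-values measure the spread between these libraries.

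Complement is a cascade of plasma proteins that marks surfaces for uptake or lysis. In the classical pathway the recognition molecule C1q carries the proteases C1r and C1s, C1s cleaves C4 and C2, and their products form an enzyme that cleaves C3. Factor B forms the matching enzyme of the alternative pathway, and C7 is one of the terminal components that insert into membranes. The C1 inhibitor, encoded by Serping1, blocks C1r and C1s, and decay-accelerating factor, encoded by Cd55, breaks up the C3-cleaving enzymes on the cell that carries it. The liver supplies most complement in plasma, and fibroblasts, endothelium and macrophages are known local sources.

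The genes lie on 5 chromosomes (GRCm38, GENCODE annotation) and all are protein-coding. C4b (chr17:34728380-34743882), Cfb (chr17:34856374-34862518) and C2 (chr17:34862604-34898265) lie on the minus strand of chromosome 17 within the major histocompatibility complex, and C3 (chr17:57203970-57228136) lies further along the same strand. C1ra (chr6:124512405-124523443, plus strand) and C1s1 (chr6:124530345-124542359, minus strand) are 6901 bases apart on chromosome 6. C7 (chr15:4988762-5063740), Serping1 (chr2:84765387-84775444) and Cd55 (chr1:130439027-130462744) are on minus strands.

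The RefSeq promoter table (GRCm38.p6) had an entry for 5 of the 9 genes. The 4 sequences shown are those of C3, C7, C1s1 and Cd55. C3 and C7 had the highest median change with age across subtypes, and Cd55 peaked in 1 capsular subtype. C1s1 was higher in all 11 fibroblast subtypes than in endothelium, as were C3, C1ra, C4b and Serping1. Each sequence holds the 250 bases before the transcription start, read along the strand of the gene. Capitals mark matches on either strand to TTNNGNAA (C/EBP), TTCNNNGAA (GAS, the STAT motif) or GGGNNTTCC (NF-kB). A further motif, GAAANNGAA (ISRE), held by 7.13% of promoters, had no match, which says only that these letters are not in these windows.
C3, chr17:57228137-57228386 (minus strand): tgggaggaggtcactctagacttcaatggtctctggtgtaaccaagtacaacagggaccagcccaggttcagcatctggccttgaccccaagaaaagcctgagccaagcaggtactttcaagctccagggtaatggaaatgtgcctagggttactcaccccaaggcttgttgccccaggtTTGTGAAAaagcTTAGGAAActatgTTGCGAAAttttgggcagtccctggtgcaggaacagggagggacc
C1s1, chr6:124542360-124542609 (minus strand): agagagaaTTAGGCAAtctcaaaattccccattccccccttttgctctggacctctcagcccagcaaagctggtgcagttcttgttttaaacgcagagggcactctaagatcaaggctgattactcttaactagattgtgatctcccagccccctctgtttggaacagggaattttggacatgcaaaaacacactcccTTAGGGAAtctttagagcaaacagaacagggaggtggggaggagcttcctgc
C7, chr15:5063774-5064023 (minus strand): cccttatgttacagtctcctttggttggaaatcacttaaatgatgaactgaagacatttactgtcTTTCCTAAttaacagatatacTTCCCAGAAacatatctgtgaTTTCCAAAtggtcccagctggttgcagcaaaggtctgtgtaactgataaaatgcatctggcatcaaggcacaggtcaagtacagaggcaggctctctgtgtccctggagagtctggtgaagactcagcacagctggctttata
Cd55, chr1:130462745-130462994 (minus strand): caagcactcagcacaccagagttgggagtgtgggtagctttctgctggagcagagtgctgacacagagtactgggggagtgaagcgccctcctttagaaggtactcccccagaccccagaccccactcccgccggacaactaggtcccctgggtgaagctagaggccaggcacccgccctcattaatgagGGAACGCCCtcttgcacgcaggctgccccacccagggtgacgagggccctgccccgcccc
C3 had 3 C/EBP matches, all within the last 70 bases. At least 1 such match was present in 36.8% of 32851 promoters of this length, and 3 or more in 2.61%. C1s1 and C7 had 2 C/EBP matches each, as did C1ra, whose window is not shown. The window of a second C1s1 start, not shown, had 1. C7 also had a GAS match (7.02% of promoters) and Cd55 had an NF-kB match (4.98%). These are matches of letters, and binding was not measured.

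The sorted populations carried the markers of their labels. Summed TEC markers were 1753–9799 counts per 1000000 gene counts (CPM) in cTEC and mTEC and at most 444 CPM in NETS, and summed endothelial markers were 2362–6478 CPM in CD31+ libraries and at most 130.9 CPM in the other populations sorted at both ages. Markers of other cells were measured in TEC libraries too. The fibroblast list, which includes Pdpn, a gene that TEC also express, summed to 162–368 CPM in cTEC at P0, 452–2812 CPM in cTEC at 4 weeks and 301–736 CPM in mTEC, where gp38+ fibroblasts had 31187–76179 CPM. A gp38+CD26+ library at 4 weeks held only 25702 gene counts and was left out, which left n = 5 there, and the other 83 held 5785352 to 15852166. The profile of the library left out was known beforehand to be unlike its own population. Droplet libraries held 28583048 to 93040640 UMIs in the age series and 4978011 to 31418527 in the newborn series, and 0.430% of 36053 and 0.206% of 21407 barcodes occurred in more than 1 library. C1ra, C1s1, C4b and Cd55 have close copies (C1rb, C1s2, C4a and Cd55b), and Cfb and C2 overlap the gene model Gm20547, which was at 0 in every bulk library, so reads in shared sequence may have been split or set aside. Bulk CPM are not corrected for gene length and are compared only within a gene.

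The first comparison asked how TEC differ from NETS. At P0, 5 of the 9 genes were lower in TEC and none was higher by edgeR's quasi-likelihood test at an adjusted p under 0.05, where 14.7% of the 20417 genes tested were lower and 24.9% higher. At 4 weeks 8 were lower and 1, C3, was higher, where 12.9% of all genes were lower and 29.8% higher. All 9 passed the filter on low counts. The median log2 difference over the 9 genes (TEC minus NETS, each side the mean of its populations' fitted log levels) was −2.27 at P0 and −3.10 at 4 weeks, beside 0.37 and 0.48 over all genes tested. Serping1 was 21.3-fold lower in TEC at P0 (log2 −4.41 ± 0.32, adjusted p = 1.0e-19) and 22.9-fold lower at 4 weeks. C1ra and C1s1 were 8.29-fold and 8.72-fold lower at P0 and 8.37-fold and 9.51-fold lower at 4 weeks. CD31+ libraries held little of these genes, and with CD31+ left out of NETS the log2 differences were −4.52 and −3.82 for C1ra, −5.89 and −4.71 for C1s1 and −5.98 and −5.96 for Serping1 at the 2 ages, all called. Cd55 was lower at 4 weeks (log2 −2.33 ± 0.53, adjusted p = 1.6e-04) and had a value of −0.53 ± 0.49 at P0 (adjusted p = 0.47). In bulk samples, fewer cells of a type and less RNA per cell cannot be told apart.

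**Figure D1:**
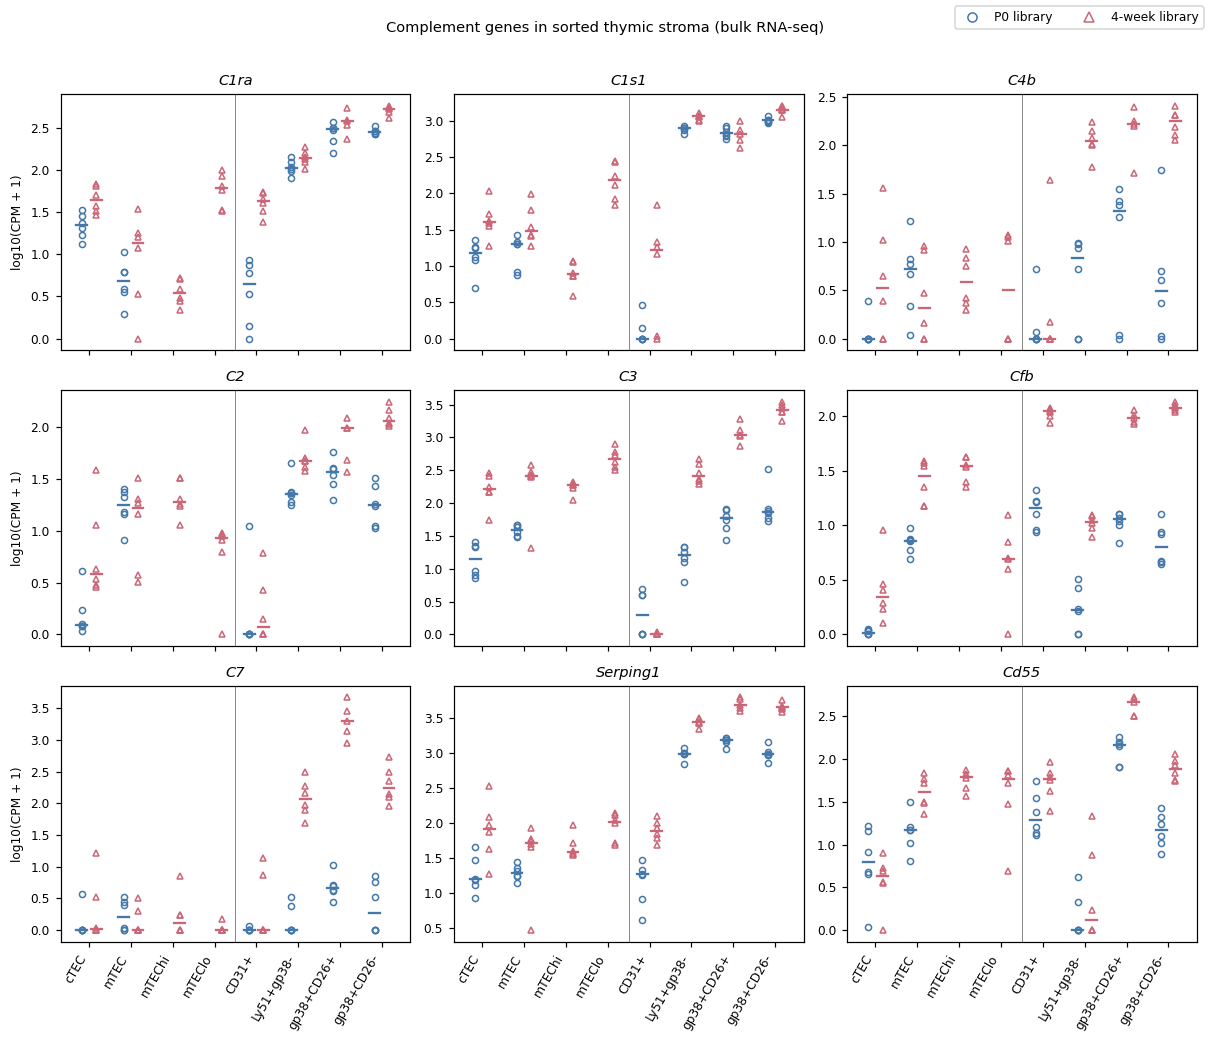
Level of each gene (y axis, log10 of CPM + 1) in every bulk library by sorted population (x axis, TEC and NETS parted by a vertical line), with circles for P0, triangles for 4 weeks and bars at medians. C1ra, C1s1 and Serping1 are high in the 3 mesenchymal populations, and C3 at 4 weeks is high in gp38+ fibroblasts and at 0 in 5 of 6 CD31+ libraries.

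The sign for C3 turned on the endothelium. Each NETS population has the same weight on the log scale, and the CD31+ libraries at 4 weeks held 0 counts of C3 in 5 of 6 cases and 1 count in the other. With CD31+ left out of NETS, a choice made after the data were seen, C3 was lower in TEC, with a log2 difference of −2.46 ± 0.35, adjusted p = 1.4e-08 at 4 weeks and −1.08 ± 0.33, adjusted p = 0.0055 at P0. With CD31+ included it was 1.41 ± 0.38, adjusted p = 0.0013 at 4 weeks and 0.12 ± 0.30, adjusted p = 0.93 at P0, and this fitted value depends on how a level of 0 is treated, so it is no measure of size. The other 8 genes were lower in TEC at 4 weeks with and without CD31+.

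**Figure D2:**
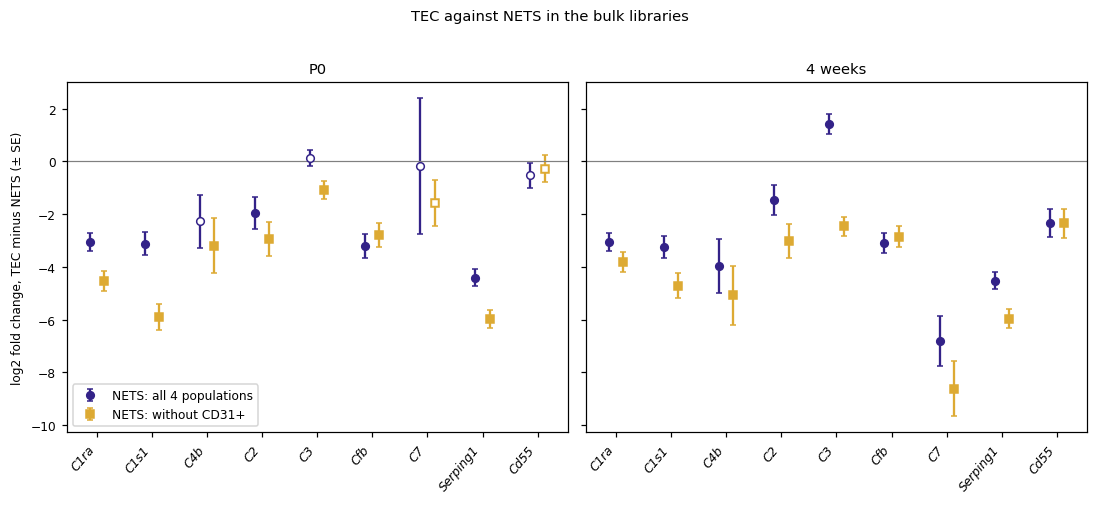
Log2 difference of TEC against NETS (y axis, ± SE derived from edgeR's F statistic) for each gene (x axis) at P0 and at 4 weeks, with all 4 NETS populations and without CD31+, where a white centre marks an adjusted p not under 0.05. C3 at 4 weeks lies above 0 with CD31+ in the mean and below 0 without it, and Serping1, C1ra and C1s1 lie below 0 in every case.

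The change in the difference between TEC and NETS from P0 to 4 weeks was called for 1 gene, C7 (log2 −6.62 ± 1.26, adjusted p = 1.4e-04), where 6.49% of all genes were called. Without CD31+ it was called for C7 and for C3 (−1.39 ± 0.45, adjusted p = 0.049), which stood at 1.29 ± 0.49, adjusted p = 0.11 with CD31+. With CD31+ included DESeq2 called C7, Cd55 and C3, the last in the direction opposite to that without CD31+ (C3 1.29 ± 0.47, adjusted p = 0.043, and Cd55 −1.84 ± 0.68, adjusted p = 0.049). Without cTEC 4 weeks replicate 6 the change of C7 was −7.91, still called. C7 was at or near 0 in many P0 libraries of both TEC and NETS. The fitted change of C7 thus depends on how a level of 0 is treated and is no measure of size.

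C1ra and C1s1, the proteases that start the classical pathway, were high in mesenchyme. C1s1 in gp38+CD26- fibroblasts was 948, 1018 and 1155 CPM at P0 (lowest, median and highest of 6 libraries) and 1129, 1432 and 1598 CPM at 4 weeks. In cTEC it was 3.96, 14.5 and 22.2 CPM and then 18.0, 39.5 and 108.1 CPM, and no cTEC or mTEC library reached any mesenchymal library at either age. C1ra in gp38+CD26- cells was 261, 279.7 and 329.8 CPM at P0 and 404, 526 and 567 CPM at 4 weeks, and in cTEC 12.3, 21.1 and 32.1 and 28.1, 42.8 and 67.4 CPM, again without overlap. C1ra was higher in cTEC than in mTEC at P0 (log2 2.19 ± 0.51, adjusted p = 6.1e-04) and at 4 weeks (1.65 ± 0.49, adjusted p = 0.0077). Both genes were lower in mTEChi than in mTEClo, with −4.25 ± 0.56, adjusted p = 2.1e-08 for C1ra and −4.27 ± 0.66, adjusted p = 1.5e-06 for C1s1. For C1s1 mTEClo held 67.4, 151.4 and 282 CPM and mTEChi 2.89, 6.69 and 10.9 CPM, which did not overlap. Fibroblast markers summed to 243–1287 CPM in mTEClo and 226–418 CPM in mTEChi. Mural markers summed to 2662–4511 and 1723–2200 CPM, and macrophage markers, which went the other way, to 39.3–255 and 485–665 CPM. The part of these markers in the differences was not tested.

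The droplet subtypes are the labels that the authors deposited, made by clustering the same counts, so levels across them are a description. At 4 weeks C1s1 was highest in MedFb1b, a medullary fibroblast subtype (959.7 and 931 UMI CPM, counted per 1000000 UMIs of the subtype, in the 2 libraries), then in MedFb2a (917 and 911) and MedFb2b (792 and 880.0). Pericytes (Pc) came next with 773 and 780.2, and the endothelial subtypes held 15.0 to 71.2. C1ra was also highest in MedFb1b (426 and 433), with 203 and 206 in pericytes, 103.4 and 133 in vascular smooth muscle (VSM) and 18.2 to 32.4 in endothelium. For both genes all 11 fibroblast subtypes were above every endothelial subtype. Of the 18 pairs of neighbours in the order of the 19 subtypes, 7 overlapped between libraries for C1s1 and 13 for C1ra. Both were low at first: the E12.5 and E13.5 libraries held 71 and 336 UMIs of C1s1 (2.41 and 4.68 CPM over all cells). The level over all cells was 171 and 169 CPM at E16.5, 218 and 274 at P0 and 629 and 618 at 4 weeks.

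C4b and C2 are cleaved by C1s and together form the classical C3-cleaving enzyme. C4b in bulk at P0 was 0, 2.22 and 54.9 CPM in gp38+CD26- and 0, 20.2 and 34.1 CPM in gp38+CD26+ cells, and at 4 weeks 114, 179.01 and 255 and 51.1, 166.7 and 251 CPM. At 4 weeks cTEC held 0, 2.47 and 35.7 CPM and mTEC 0, 1.199 and 8.09 CPM. C4b was lower in TEC at 4 weeks (log2 −3.96 ± 1.03, adjusted p = 9.5e-04), and at P0 the value was −2.27 ± 1.003, adjusted p = 0.064, and −2.22 by DESeq2, which called it. C2 was lower in TEC at P0 (log2 −1.96 ± 0.61, adjusted p = 0.0059) and at 4 weeks (−1.46 ± 0.58, adjusted p = 0.035). At P0 mTEC held 7.09, 17.1 and 24.5 CPM of C2, which overlapped gp38+CD26- fibroblasts (9.52, 16.6 and 31.3 CPM), while cTEC held 0.0807, 0.221 and 3.06 CPM. Both genes were lower in bulk cTEC than in mTEC at P0, with −4.61 ± 1.04, adjusted p = 4.0e-04 for C2 and −4.49 ± 1.70, adjusted p = 0.034 for C4b, and neither was called at 4 weeks. For C4b at P0 the highest cTEC library held 1.45 CPM and the next 0, and the highest mTEC library 15.4 CPM and the next 5.69. The fitted size for C4b thus depends on how a level of 0 is treated. In newborn droplets, given below, cortical and medullary TEC subtypes overlapped for C2. Genes listed as markers of other cells were also lower in bulk cTEC than in mTEC at P0. Mesothelial sums were 792–1019.6 CPM in mTEC and 0–3.36 CPM in cTEC, mural sums 2225–3446 and 88.1–189 CPM and macrophage sums 208–315 and 0–8.10 CPM. A count was present for 18286–20407 genes in mTEC libraries and 14784–15389 in cTEC libraries at P0. Whether mTEC themselves or other cells held these markers was not tested, nor was their part in the differences. Without cTEC 4 weeks replicate 6 the 4-week difference of TEC against NETS was −4.71 for C4b and −2.09 for C2, both still called.

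In droplets the mesothelium (Mes) had the most C2 at 4 weeks, 371 and 474 UMI CPM in 32 and 157 cells, ahead of MedFb2a (164.8 and 166) without overlap. At P0 mesothelial C2 was 322 and 291, from 228 and 7 cells. C2 differed among capsular fibroblasts, with 134.6 and 139.8 UMI CPM in CapFb1a and 5.51 and 3.62 in CapFb4. C4b was highest in the cells labelled NC (neural crest, 7 in each library, 495 and 826 UMI CPM), then in mesothelium (265 and 281) and in CapFb3 (126.6 and 233), and held 1.87 to 5.46 in endothelium. Of the 18 pairs of neighbours 13 overlapped for C2 and 11 for C4b.

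C3 is the protein on which all pathways converge. In gp38+CD26- fibroblasts it went from 51.7, 72.9 and 327 CPM at P0 to 1782, 2627 and 3481 CPM at 4 weeks, in gp38+CD26+ fibroblasts from 26.02, 58.6 and 79.4 to 749, 1095 and 1930.3 CPM, and in Ly51+gp38- cells from 5.37, 15.5 and 20.5 to 196, 262 and 466 CPM, in no case with overlap. Fibroblast markers in the Ly51+gp38- libraries summed to 5091–11961 CPM at P0 and 2840.5–6805 CPM at 4 weeks, where gp38+CD26- cells had 31187–44403 and 36685–45127 CPM, and the part of fibroblast RNA in the Ly51+gp38- levels was not tested. TEC held C3 as well. cTEC had 6.13, 14.3 and 24.3 CPM at P0 and 53.5, 162 and 285 CPM at 4 weeks, and mTEC 29.4, 38.7 and 46.03 and 19.4, 259 and 375 CPM. At 4 weeks mTEClo had 323, 477 and 782 CPM and mTEChi 109, 186 and 212 CPM (log2 −1.24 ± 0.50, adjusted p = 0.067). The cTEC and mTEC levels overlapped those of Ly51+gp38- cells at 4 weeks and lay below every gp38+ library, while the highest mTEClo library (782 CPM) was above the lowest gp38+CD26+ library (749 CPM). C3 was lower in cTEC than in mTEC at P0 (−1.51 ± 0.50, adjusted p = 0.016). The mesothelial, mural and macrophage sums given with C2 and C4b differed the same way, and their part was not tested.

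Among the 19 subtypes C3 at 4 weeks was highest in MedFb2a (4946 and 5683 UMI CPM), followed without overlap by MedFb1b (4494 and 4819.8), then by MedFb2b (4484 and 3428), mesothelium (3802 and 3929) and MedFb1a (3518 and 4019), and the lowest fibroblast subtype was CapFb2a (1369.6 and 1703). Of the 18 pairs of neighbours 10 overlapped. At P0 mesothelium already held 1790.1 and 2275 UMI CPM while the highest fibroblast subtype, MedFb2a, held 234 and 169.9. Endothelial subtypes held 38.4 to 233 UMI CPM at 4 weeks, where the CD31+ bulk libraries held 1 count in all. As a percent of the fibroblast level in the same library, C3 in endothelium was 3.83 and 4.76, and fibroblast genes that endothelium should lack were at 2.70 and 4.23 (Col1a1), 3.11 and 4.57 (Col3a1), 2.71 and 3.097 (Dcn) and 4.10 and 5.07 (Pdgfra). The other listed fibroblast markers were at 3.21 and 3.03 (Lum) and 3.45 and 3.81 (Pdpn). C3 in endothelial droplets taken as 1 class lay below Pdgfra and above the other markers in both libraries. It is not taken to show expression, and the part of background in it was not tested. C3 had a UMI in 37.2% of 521 capillary endothelial cells (EnC) and in 98.2% of 598 MedFb2a cells, whose median depths were 5185 and 13173 UMIs in the shallower library, and after thinning to 2000 UMIs per cell in 18.5% and 96.1%.

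Cfb was the member for which endothelium at 4 weeks stood closest to fibroblasts, followed by Cd55. CD31+ libraries held 7.60, 13.6 and 20.04 CPM at P0 and 85.7, 109 and 116 CPM at 4 weeks, which overlapped both gp38+CD26- (109, 118 and 134.1 CPM) and gp38+CD26+ cells (83.3, 95.9 and 112.6 CPM) and was above Ly51+gp38- cells (6.83, 9.74 and 11.5 CPM). Fibroblast markers summed to at most 90.02 CPM in CD31+ libraries. In droplets venous and lymphatic endothelium (EnVL) held 39.3 and 50.7 UMI CPM at 4 weeks, behind mesothelium (48.3 and 58.7) and MedFb1b (53.2 and 50.6) with overlap among the 3. Endothelium as a whole stood at 77.7 and 87.4 percent of the fibroblast level, above the fibroblast genes named for C3. EnVL gave 84 of its UMIs, EnC 45 and EnA 14, from 197, 521 and 150 cells. EnC held 13.7 and 14.1 UMI CPM (47.7 and 49.96 percent of the fibroblast level) and EnA 14.6 and 14.4 (50.6 and 50.9 percent), below EnVL and above CapFb4 and CapFb2b. Pericytes and VSM held 0.845 to 2.71 UMI CPM. Among TEC, Cfb was higher in mTEC: at P0 cTEC held 3 counts over 6 libraries and mTEC 3.89, 6.22 and 8.52 CPM (adjusted p = 1.4e-10), and at 4 weeks cTEC held 0.261, 1.24 and 8.01 CPM and mTEC 13.9, 27.7 and 37.9 CPM (log2 −3.74 ± 0.60, adjusted p = 1.3e-06, and −4.73 without cTEC replicate 6). mTEChi held 21.6, 33.9 and 41.3 CPM and mTEClo 0, 3.94 and 11.4 CPM (log2 3.03 ± 0.58, adjusted p = 9.4e-05). Macrophage sums went the same way, with 485–665 CPM in mTEChi and 39.3–255 CPM in mTEClo. At 4 weeks they were 348–518 CPM in mTEC and 3.22–29.0 CPM in cTEC. Haematopoietic sums were 128–181.7 CPM in mTEChi and 5.43–50.4 CPM in mTEClo, but overlapped between mTEC and cTEC at 4 weeks. Mural sums, given with C1s1, were lower in mTEChi. The P0 sums are given with C2 and C4b. The part of these markers in the Cfb differences was not tested.

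C7, a terminal component, was close to the floor before 4 weeks. All cells of the P0 libraries held 21 and 7 UMIs (0.347 and 0.104 CPM) and those of the E16.5 libraries 9 and 10, and at 4 weeks 1303 and 1399 (45.6 and 35.8 CPM). The highest subtypes were capsular, CapFb2b with 254 and 168.4 UMI CPM, CapFb2a with 138 and 111.97 and CapFb3 with 170.2 and 58.5, where MedFb1a held 0.971 and 0.893 and endothelium 0 to 3.64. A C7 UMI was present in 69.6% of 391 CapFb2b cells and in 0.192% of 521 EnC cells, at median depths of 16408 and 5185 UMIs in the shallower library. In bulk, gp38+CD26+ cells went from 1.75, 3.62 and 9.58 CPM at P0 to 892, 1976 and 4643 CPM at 4 weeks, gp38+CD26- cells from 0, 1.18 and 6.08 to 90.9, 178 and 539 CPM, and Ly51+gp38- cells from 0, 0 and 2.39 to 48.3, 119.1 and 315 CPM. The highest of the cTEC and mTEC libraries was 2.67 CPM at P0 and 15.4 CPM at 4 weeks. The gp38+CD26+ and gp38+CD26- libraries did not overlap at 4 weeks, while the log2 difference of 3.37 ± 1.17 had an adjusted p of 0.069 by edgeR.

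Serping1, the inhibitor of C1r and C1s, was the member with the most UMIs at the earliest ages. The E12.5 and E13.5 libraries held 1150 and 4208 UMIs (39.0 and 58.7 CPM), found in each of the 18 subtypes with at least 5 cells at either age. At E12.5 this rested on 1 UMI each in CapFb4 and EnA and 3 each in CapFb1c, MedFb1b, MedFb2a and EnC. Those are at or under the floor of 3 counts, so presence in these subtypes is not shown at E12.5. The level over all cells was 202 and 198 CPM at E16.5, 341 and 310.1 at P0 and 1389 and 1557 at 4 weeks. At 4 weeks CapFb1a (2401 and 2308 UMI CPM) and CapFb1c (2231 and 2180.3) were highest, MedFb1a was the lowest fibroblast subtype (797 and 994), mural cells held 995 to 1184 and endothelium 36.5 to 167.7. In bulk at P0 the 3 mesenchymal populations held 696 to 1625 CPM and cTEC, mTEC and CD31+ cells 3.12 to 44.2 CPM. At 4 weeks the ranges were 2198 to 6126 and 1.90 to 327 CPM, and the 2 sets of libraries did not overlap at either age.

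Cd55, which protects the cell that carries it, was highest in 1 capsular subtype at each age from E16.5. CapFb4 held 422 and 435 UMI CPM at E16.5, 536 and 460.4 at P0 and 463 and 457 at 4 weeks, when CapFb2b was next (189 and 186) without overlap. Pericytes and VSM were lowest, at 2.11 to 6.08. EnVL (80.5 and 78.4) was above the other endothelial subtypes (18.1 to 28.7), and endothelium stood at 32.7 and 32.2 percent of the fibroblast level. In bulk gp38+CD26+ cells held 78.5, 146.3 and 178 CPM at P0 and gp38+CD26- cells 6.86, 13.9 and 25.6 CPM, a 9.44-fold difference (log2 3.24 ± 0.83, adjusted p = 0.012) and the only one of the 9 called between these fibroblasts at P0, where 4.2% of all genes were called. At 4 weeks they held 315, 466 and 522 and 54.8, 75.5 and 112.1 CPM, again without overlap (log2 2.497 ± 0.82, adjusted p = 0.052). At 4 weeks 0 of the 9 were called by edgeR, where 6.03% of all genes were, 3 had an unadjusted p under 0.05 (C3, C7 and Cd55), and Cd55 was called by DESeq2, by edgeR with DESeq2's size factors (log2 2.55 ± 0.82, adjusted p = 0.047) and with the position of a library in the title numbers as a block (2.64 ± 0.83, adjusted p = 0.045). TEC held Cd55 too, with 5.40, 13.9 and 30.5 CPM in mTEC at P0 and 21.6, 41.0 and 67.5 CPM at 4 weeks, when cTEC held 0, 3.33 and 6.96 CPM (log2 −3.83 ± 0.86, adjusted p = 4.0e-04).

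**Figure D3:**
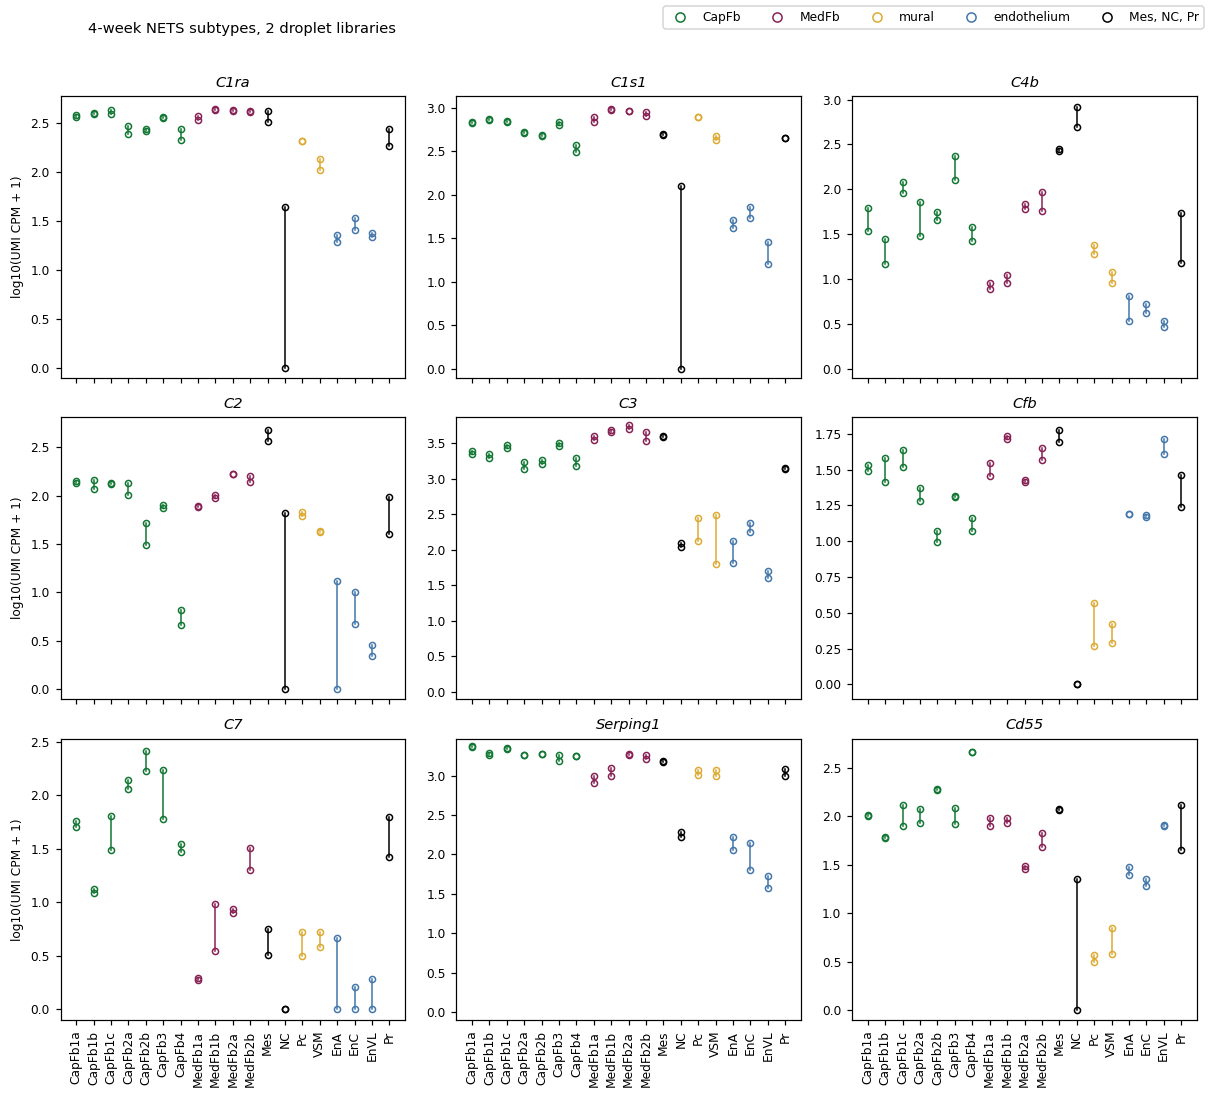
UMI CPM of each gene (y axis, log10 of the value + 1) in the 19 subtypes (x axis) of the 2 droplet libraries at 4 weeks, with a point for each library and a line between the 2. C3, C1ra, C1s1 and Serping1 are high across fibroblasts and low in endothelium, C7 peaks in capsular CapFb2b, Cd55 in CapFb4 and C2 in mesothelium.

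Over the 9 genes cTEC were higher than mTEC for 1 at P0 (C1ra, where 5.96% of all genes were higher) and lower for 4 (C2, C3, C4b and Cfb, where 26.2% were lower). At 4 weeks 1 was higher (C1ra, background 8.33%) and 2 lower (Cd55 and Cfb, background 23.9%). Between mTEChi and mTEClo 1 was higher (Cfb, background 14.4%) and 2 lower (C1ra and C1s1, background 4.66%).

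The second question was how the genes changed between P0 and 4 weeks. The study's methods describe depletion of CD45+ cells with magnetic beads before staining, a step stated for adult mice only. If the mice of 4 weeks were among these, age and this step cannot be told apart in bulk or droplets. Of the 9, 5 rose in CD31+ cells (4.72% of all genes did), 6 in Ly51+gp38- (6.31%), 4 in gp38+CD26+ (6.26%), 6 in gp38+CD26- (8.63%), 6 in cTEC (7.92%) and 4 in mTEC (2.47%). Cfb and Serping1 rose in all 6 populations, with log2 changes of 2.28 to 5.31 and 1.53 to 2.56. With the library of low depth included, Serping1 in mTEC (1.46 ± 0.48, adjusted p = 0.076) was not called. C3 rose in 5, by 4.54 to 4.81 in the mesenchymal populations, 3.71 ± 0.55, adjusted p = 5.6e-07 in cTEC and 2.83 ± 0.52, adjusted p = 1.7e-04 in mTEC. C7 rose in all 4 NETS populations and was not called in TEC (2.80 ± 1.32 in cTEC and −0.61 ± 1.35 in mTEC). C1s1 rose in CD31+ cells and cTEC, C1ra in CD31+ cells and mTEC, C2 in gp38+CD26- cells and cTEC, C4b in Ly51+gp38- cells and cTEC, and Cd55 in Ly51+gp38- and gp38+CD26- cells. C1ra in mTEC was not called with the library of low depth (1.66 ± 0.54, adjusted p = 0.067) or without the filter on low counts (1.67 ± 0.51, adjusted p = 0.059). Without that filter C4b in Ly51+gp38- cells (4.77 ± 1.58, adjusted p = 0.052) and in cTEC (5.14 ± 1.72, adjusted p = 0.059) was not called. With title position as a block, chosen after the data were seen, Cd55 in Ly51+gp38- cells (2.58 ± 0.94, adjusted p = 0.073) and C4b in cTEC (4.54 ± 1.69, adjusted p = 0.083) were not called, and C4b in gp38+CD26- cells (5.97 ± 1.57, adjusted p = 0.0053) was. Without gp38+CD26- P0 replicate 6, which had the most C3 and C4b of its group, Cd55 in gp38+CD26- cells was 2.43 and not called, C4b 6.86 and called, and C3 5.49. The 1 gene that fell was C3 in CD31+ cells, where 5.77% of all genes fell: at P0 3 of 6 libraries held 36, 45 and 56 counts and the others 0, and at 4 weeks 1 library held 1 count, a ratio of CPM of 147.9 (95% counting interval 26.1 to 5886). C7 in CD31+ cells had 245 counts at 4 weeks, all in 2 of the 6 libraries, and 2 counts at P0, a ratio of 113.4 (95% counting interval 31.1 to 942). C1s1 in CD31+ cells at 4 weeks was at 0 and 0.0783 CPM in 2 libraries and 13.9 to 68.9 CPM in the other 4. Cfb in cTEC rose from 3 counts to 162, a ratio of 47.2 (95% counting interval 15.9 to 231), and these intervals cover counting error only.

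Markers of other cells moved with age as well. In cTEC the fibroblast sum went from 162–368 to 452–2812 CPM, the mesothelial sum from 0–3.36 to 6.87–2350.4 CPM and the haematopoietic sum from 2.12–14.2 to 147–561 CPM. A single cTEC library at 4 weeks (replicate 6) had the highest fibroblast and mesothelial sums of its group and the highest C1s1, C2, C4b, C7, Cfb and Serping1. Without it, a choice made after the data were seen, 3 of the 6 cTEC calls remained (C3, Cfb and Serping1), and the values of the others were 1.47 ± 0.61, adjusted p = 0.13 for C1s1, 2.47 ± 0.96, adjusted p = 0.1 for C2 and 3.59 ± 1.68, adjusted p = 0.2 for C4b. The change of Cfb was 5.31 ± 0.77 with that library and 4.26 without it, and that of Serping1 2.56 ± 0.44 and 1.83. In cTEC the thymocyte sum also went from 5.63–17.9 to 178–712 CPM. Erythroid sums in mTEC were 5.70–41.7 CPM at P0 and 452–3619.7 CPM at 4 weeks, and cTEC held 0–1.13 and 25.9–1110.3 CPM. CD31+ libraries held 5.97–258 and 231–6064 CPM, and the mesenchymal populations at most 2.49 CPM at P0, then 3.47–419 CPM (Ly51+gp38-), 921–2362 CPM (gp38+CD26+) and 20.2–2636 CPM (gp38+CD26-). In gp38+CD26+ cells the mesothelial sum went from 0–367 to 463–5310.5 CPM. In CD31+ cells the mural sum went from 25.8–157.9 to 628–1815 CPM. The part of these cells in the changes was not tested.

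Within droplet subtypes, 17 of the 19 had enough cells to test 4 weeks against P0, giving 153 pairs of gene and subtype, of which 141 passed the filter on low counts. The gene was higher at 4 weeks in 114 pairs and lower in 2, where 13.7% of all pairs were higher and 13.9% lower. The pairs come from the same 4 libraries and are not independent. C3 was higher in 16 of 17 subtypes (all but EnVL), by 3.81 to 7.21 on the log2 scale in the 11 fibroblast subtypes, and in MedFb1b it went from 66.3 and 53.6 to 4494 and 4819.8 UMI CPM (log2 6.26 ± 0.11, adjusted p = 2.8e-14). The 16 included 2 endothelial and both mural subtypes. As a percent of the fibroblast level in the same library, C3 was 5.49 and 7.13 in EnC and 1.94 and 9.45 in VSM. This was within the range of the 6 fibroblast markers (4.14 to 6.18 and 4.15 to 8.25 in EnC, 1.18 to 2.84 and 7.75 to 11.8 in VSM), and C3 is not taken to show expression there. In EnA it was 4.08 and 1.98, where the markers were at 1.44 to 2.87 and 1.04 to 2.20, so that C3 was above them in 1 of 2 libraries, on 72 UMIs. In pericytes C3 was 4.05 and 8.41, above Pdgfra (1.98 and 4.04), Dcn (2.40 and 3.86) and Lum (2.13 and 2.39) and below Col1a1 (9.72 and 9.31) and Col3a1 (21.2 and 20.4), collagens that pericytes are also known to express. The part of background in these EnC, VSM, EnA and pericyte levels was not tested. Outside endothelium and mural cells, C3 was higher in 12 of 12. C1ra, C1s1 and Serping1 were each higher in 14 of 17, the exceptions being the 3 endothelial subtypes, and Serping1 rose in fibroblasts by 1.80 to 2.85. C4b was higher in 13 of 14, C7 in 13 of 13 and Cfb in 14 of 14, but a pair near 0 at P0 could pass the filter only by being higher at 4 weeks. With at least 10 UMIs required in both P0 libraries, a choice made after the data were seen, 102 of the 141 pairs were left, with 84 higher and 2 lower, and these held 10 pairs of C4b, 2 of Cfb and 0 of C7, so the counts of C7 and Cfb carry no weight. The share of all genes under that requirement was not computed, so the 84 and 2 have no matched background. C2 was higher in 9 of 15 and lower in 2, CapFb4 (8.35 and 11.4 to 5.51 and 3.62 UMI CPM, log2 −1.05 ± 0.39, adjusted p = 0.044) and VSM (54.4 and 123.5 to 42.04 and 40.9, log2 −1.16 ± 0.34, adjusted p = 0.042). DESeq2 called neither, and without 1 library the values were −1.32 to −0.722 in CapFb4, called in 1 of 4 cases, and −1.62 to −0.470 in VSM, called in 2 of 4, where the value nearest 0 was without P0 replicate 2. Cd55 was higher in 7 of 17, and in CapFb4, where it was highest, the log2 difference was −0.03 ± 0.09, adjusted p = 0.85.

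Sums of other cells' markers also differed with age in droplets. Erythroid sums went from 349 and 256 at P0 to 1116 and 2308 UMI CPM at 4 weeks in capsular fibroblasts and from 80.6 and 69.7 to 1409.8 and 1459 in medullary fibroblasts. They went from 856 and 905 to 1506 and 4758 in mural cells and from 107.3 and 16725 to 11577 and 21903 in endothelium. Over these 4 classes haematopoietic sums were 9.60–34.4 UMI CPM at P0 and 18.6–66.7 at 4 weeks, thymocyte sums 6.51–20.4 and 19.5–66.9, and macrophage sums 1.02–3.79 and 0.928–4.87. The fibroblast markers themselves went from 24914–30435 to 37221–37787 in capsular and from 13086–13911 to 22837–24273 in medullary fibroblasts. The part of these shifts in the changes of the 9 genes was not tested.

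Between E16.5 and P0, the genes were higher at P0 in 59 of the 141 pairs tested and lower in 0, where 6.63% of all pairs were higher and 5.99% lower. C3 and Serping1 had 11 of these each, C1ra and C2 had 9 each, C1s1 had 7, C4b and Cd55 had 5 each, Cfb had 2 and C7 had 0. C3 in MedFb2a went from 29.999 and 25.7 to 234 and 169.9 UMI CPM (log2 2.70 ± 0.15, adjusted p = 5.1e-07). With at least 10 UMIs in both E16.5 libraries, 48 of 88 pairs were higher, again without a matched share over all genes. The 59 became 33 without the first E16.5 library and 38 without the second. The E12.5 and E13.5 libraries entered no test, being single. There Cfb had 0 UMIs in both libraries, and C3 had 3 and 8.

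**Figure D4:**
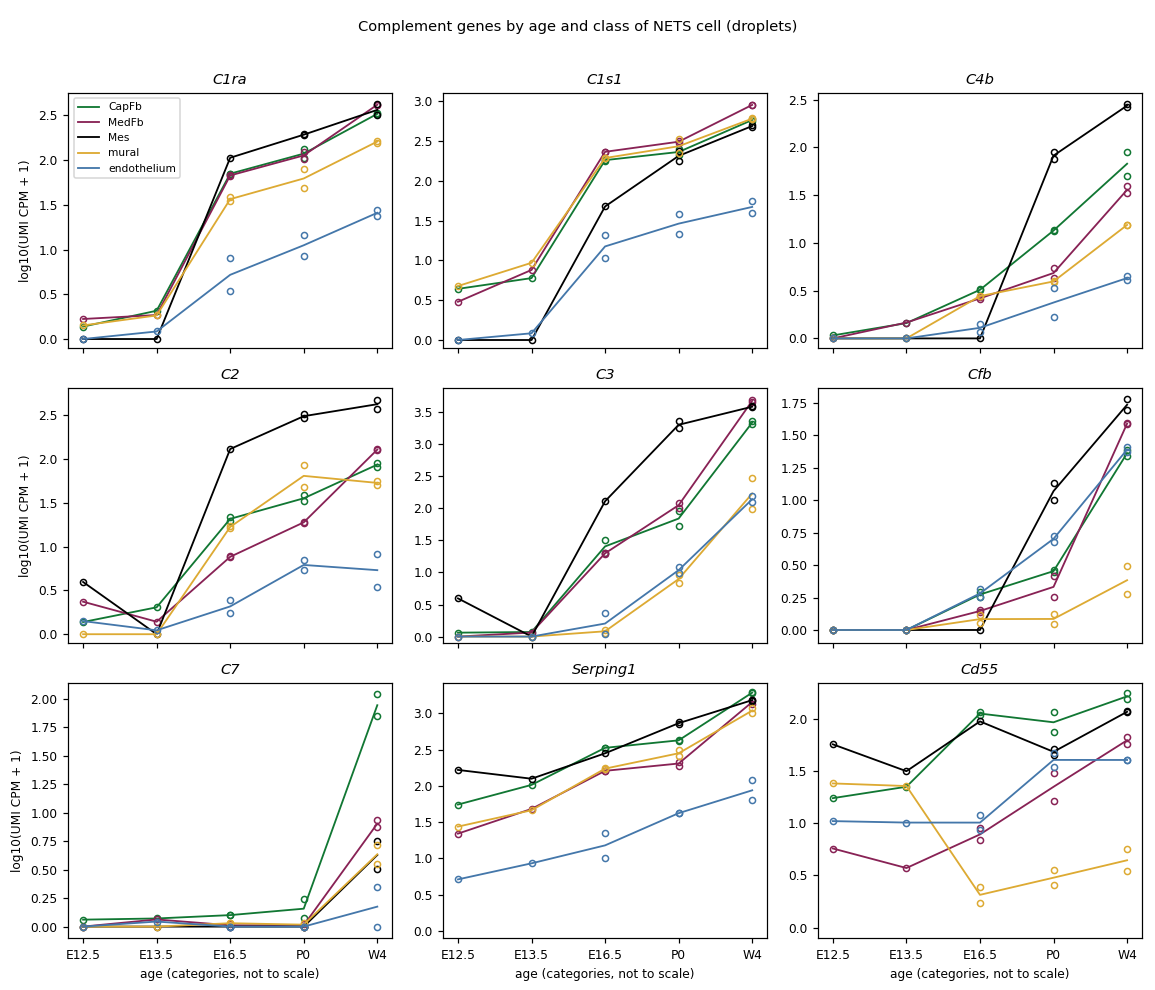
UMI CPM of each gene (y axis, log10 of the value + 1) at 5 ages (x axis, evenly spaced) in capsular and medullary fibroblasts, mesothelium, mural cells and endothelium, with a point for each library and lines through the means of the log values. C7 leaves the floor between P0 and 4 weeks, Serping1 is present at E12.5, and C3 in mesothelium is ahead of fibroblasts at P0.

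The newborn series held TEC and NETS in the same libraries. C3 was 11.4 to 21.7 UMI CPM in TEC and 30.7 to 90.7 in fibroblasts, C1s1 35.2 to 76.8 and 402 to 527, and Serping1 20.5 to 92.2 and 383 to 521, each without overlap. C2 overlapped, with 13.48 to 15.9 in TEC and 15.5 to 24.8 in fibroblasts. As a percent of the fibroblast level in the same library (lowest, median and highest of 6), TEC stood at 58.2, 80.5 and 102.6 for C2, 14.6, 26.1 and 34.3 for C4b, 15.9, 22.3 and 38.6 for C3 and 14.3, 19.7 and 24.7 for C1ra. The values were 9.85, 17.3 and 22.8 for Cd55, 10.2, 11.8 and 20.6 for Cfb, 7.27, 10.3 and 18.5 for C1s1 and 4.89, 9.34 and 18.0 for Serping1. Fibroblast genes that TEC should lack were at 1.01, 3.64 and 8.85 (Pdgfra), 2.98, 5.29 and 13.96 (Col1a1) and 5.01, 6.96 and 16.4 (Dcn), so the ranges of all genes but C2 overlapped that of Dcn. Against Dcn in the same library, C2, C3, C4b, C1ra and Cd55 were above it in 6 of 6 libraries, C1s1 and Cfb in 5 and Serping1 in 4. Pdpn, also on the marker list, was at 77.3, 91.2 and 128. No test was made of these percentages.

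**Figure D5:**
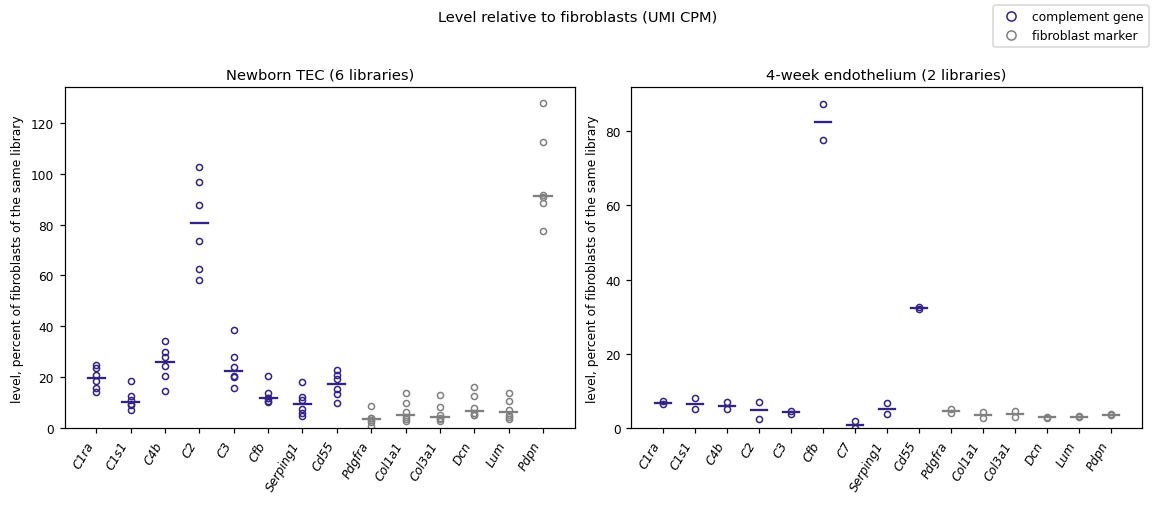
Level as a percent of the fibroblast level in the same library (y axis) for complement genes and fibroblast markers (x axis) in newborn TEC (6 libraries) and in endothelium at 4 weeks (2 libraries), with a point for each library and bars at medians. Among the complement genes, C2 stands out in TEC, where the marker Pdpn is also high, and Cfb and Cd55 stand out in endothelium. C3 in endothelium lies among the fibroblast markers.

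Among TEC subtypes, C3 in mature medullary TEC (MmTEC) was 19.2, 57.8 and 94.5 UMI CPM (lowest, median and highest of 6 libraries), in intertypical TEC (ItTEC) 19.2, 43.05 and 72.6 and in perinatal cortical TEC (PcTEC) 3.87, 7.58 and 11.9. C2 was 13.2, 16.2 and 17.6 in PcTEC, 3.67, 9.29 and 22.0 in mature cortical TEC (McTEC) and 7.44, 18.0 and 46.9 in MmTEC. These ranges of C2 overlapped, where bulk cTEC lay below mTEC without overlap at P0. Serping1 and C1s1 had their highest medians in neural TEC (nTEC, 252 cells in all), 129, 261 and 326 and 64.6, 226 and 341. The nTEC levels rest on 222 UMIs of Serping1 and 203 of C1s1, and none of these levels was tested.

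The third comparison was between genotypes at P0 in TEC, fibroblasts, mural cells and endothelium. Of the 25 pairs of gene and class that passed the filter, 0 were called by edgeR and 0 by DESeq2, 3 had an unadjusted p under 0.05, and 0.0294% of all pairs were called by edgeR. C3 in fibroblasts was 30.7, 73.2 and 53.0 UMI CPM in the Tbx1+/-Crkl+/- libraries and 81.96, 90.7 and 71.5 in wild-type (log2 −0.62 ± 0.25, adjusted p = 0.53 by edgeR). Cd55 in fibroblasts was 55.6, 45.5 and 54.2 and 69.2, 54.3 and 96.3 (log2 −0.58 ± 0.23, adjusted p = 0.53 by edgeR). C1s1 in TEC was 41.0, 76.8 and 66.6 and 47.1, 35.2 and 38.7 (log2 0.61 ± 0.25, adjusted p = 0.69 by edgeR). The 6 fibroblast markers in the same TEC summed to 707, 2131 and 1251 and 1017, 702 and 1018 UMI CPM, highest in the 2 libraries with the most C1s1, and their part in this difference was not tested.

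The rest of the complement system was read from 42 further genes, of which 37 were tested in bulk. TEC were higher than NETS for 12 and lower for 7 at P0, and higher for 10 and lower for 6 at 4 weeks, shares of the 37 to be read against the 24.9% and 14.7% of all genes at P0 and 29.8% and 12.9% at 4 weeks. Higher at both ages were the C1q chains C1qa (log2 5.86 ± 0.87 at P0 and 8.41 ± 0.996 at 4 weeks), C1qb (5.46 ± 0.95 and 7.23 ± 1.02) and C1qc (4.64 ± 0.87 and 6.23 ± 0.95), known products of macrophages, and properdin (Cfp, 4.99 ± 1.01 and 6.94 ± 1.02). C1qa was 23.0 to 40.7 CPM in mTEC at P0 and 12.1 to 46.5 CPM at 4 weeks, at most 1.55 CPM in cTEC, and 0 in every NETS library in the fit at 4 weeks, so these fitted folds are no bounds. Macrophage markers summed to 208–315 CPM in mTEC at P0 and 348–518 CPM at 4 weeks and at most 29.0 CPM in cTEC, and their part was not tested. The cells had been sorted as CD45-, a gate that should leave out macrophages, while haematopoietic markers (Ptprc, Cd52 and Coro1a) summed to 51.5–105 CPM in mTEC at P0 and 82.6–288 CPM at 4 weeks. Among those lower at both ages were vitronectin (Vtn, −7.11 ± 1.22 and −5.89 ± 0.94), a regulator, and the collectins Colec11 (−6.07 ± 1.22 and −3.26 ± 0.87) and Colec12 (−5.04 ± 0.70 and −3.08 ± 0.62), which are pattern-recognition proteins. Within droplet subtypes these further genes were higher at 4 weeks than at P0 in 77 of 231 pairs tested and lower in 40, where 13.7% of all pairs were higher and 13.9% lower. Colec11 was lower in 10 of 16 subtypes.

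Patterns over the 19 subtypes at 4 weeks were compared by Pearson's r of log2 mean CPM plus 1 among 12203 genes, as a description in which all points come from the same 2 libraries. The 3 genes most like C1ra were Rbms3 (0.97), Egfr (0.97) and C1s1 (0.96), and those most like C1s1 were Rbms3 (0.96), Ryk (0.96) and C1ra (0.96), so each was among the 3 most like the other. C3 was most like Dcn (0.95), Txndc5 (0.95) and Cpxm1 (0.95), where Dcn encodes the proteoglycan decorin. C7 was most like Mfap4 (0.95), Angptl1 (0.93) and Aff3 (0.93), and Serping1 most like Nbl1 (0.96), Snhg18 (0.95) and Ift27 (0.95). Cfb was most like Tram2 (0.94), Arsa (0.90) and Nos1ap (0.90), and Cd55 most like Rpl31 (0.93), Rpl11 (0.91) and Gm15675 (0.90), with 2 ribosomal genes among them. C2 was most like Smo (0.90), Tbc1d16 (0.90) and Meis1 (0.89), and C4b most like Gm2a (0.90), Acot1 (0.89) and Sdc4 (0.87).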

How the data were processed

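RNA was measured in 84 bulk libraries of sorted cells and in 14 droplet libraries of thymic stroma. The authors deposited raw counts: reads per Ensembl gene for bulk (STAR 2.5.3a, HTSeq and mm10 in the submitters' processing notes) and UMI counts per gene and cell for droplets (Cell Ranger 3.1.0), together with the subtype label of each cell, which came from clustering. Per the study's methods, cells with few genes, high mitochondrial shares or doublet calls, and clusters expressing Ptprc, had been removed. The strand setting and the annotation used for bulk counts are not given in the sources used here. Reads in no gene, 7.81% to 29.4% of a library, and spike-in rows, which were at 0, were left out of the totals. No column of per-sample values was left unmapped.

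Bulk counts were fitted with edgeR 4.0.16 (R 4.3.3, limma 3.58.1) by the quasi-likelihood test after filterByExpr and TMM scaling, in 1 fit over 14 groups and 83 libraries. A library under 1000000 gene counts was left out. Droplet UMIs were summed per subtype (at least 20 cells in each library compared) or per class and library and fitted the same way, since libraries and not cells are replicates. P-values were adjusted by Benjamini-Hochberg over all genes tested in the bulk comparison, subtype or class, and an adjusted p under 0.05 was called. Errors are SE derived from edgeR's test as the absolute log2 change over the square root of its F statistic. They are thus not independent of its p-values. SE and adjusted p are from edgeR unless DESeq2 (1.42.0) is named. CPM are counts per total gene counts, with no pseudocount, and levels per subtype rest on at least 5 cells. The scripts were tested on simulated data with 200 changed genes. The 9 genes and the gene lists were chosen with earlier results of these data known. All 9 were named, with up to 4 further complement genes per direction that were called the same way at both ages in TEC against NETS and the 3 genes most like each in pattern, among genes of at least 10 CPM in a subtype. A gene that this rule names is not reported here. Alternatives were DESeq2, other size factors, other filters, the title prefix, title position or replicate number as a term, other cell minimums and libraries left out. Sequences came from RefSeq (GRCm38.p6), and symbols and positions from the GENCODE mouse release 21 annotation in hand, which may differ from the one the authors used. Python 3.11.15 with numpy 2.4.6, pandas 2.3.3, scipy 1.17.1 and matplotlib 3.10.9 was used. Counting intervals and floors cover counting error only.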

Additional observations from a re-analysis of the deposited data

Results flagged for a closer look

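In 29 of 126 tests of a gene in a bulk group with any counts, 1 library stood apart from the others of its group by Dixon's test at 95%, made on CPM without a log. Chance gives this for about 1 in 20 groups of normally distributed values without ties, a rate that skewed CPM need not follow. In 6 of the 29 all other libraries of the group were at 0, where any count stands apart and that rate does not apply. Each value is given with the next one in its group in parentheses. C3 was at 0.0783 CPM (0) in CD31+ cells at 4 weeks and 327 CPM (81.2) in gp38+CD26- cells at P0 in the highest library. C3 was also at 19.4 CPM (244) in mTEC at 4 weeks in the lowest library. C1s1 was at 108.1 CPM (50.9) in cTEC at 4 weeks, 68.9 CPM (20.2) in CD31+ cells at 4 weeks and 1.89 CPM (0.390) in CD31+ cells at P0 in the highest library. C2 was at 37.4 CPM (10.4) in cTEC at 4 weeks, 93.2 CPM (49.4) in Ly51+gp38- cells at 4 weeks, 5.15 CPM (1.71) in CD31+ cells at 4 weeks, 3.06 CPM (0.707) in cTEC at P0, 44.1 CPM (22.9) in Ly51+gp38- cells at P0 and 10.02 CPM (0) in CD31+ cells at P0 in the highest library. C4b was at 35.7 CPM (9.41) in cTEC at 4 weeks, 42.4 CPM (0.480) in CD31+ cells at 4 weeks, 1.45 CPM (0) in cTEC at P0, 15.4 CPM (5.69) in mTEC at P0, 54.9 CPM (3.999) in gp38+CD26- cells at P0 and 4.32 CPM (0.164) in CD31+ cells at P0 in the highest library. C7 was at 15.4 CPM (2.37) in cTEC at 4 weeks, 6.13 CPM (0.736) in mTEChi at 4 weeks, 0.521 CPM (0) in mTEClo at 4 weeks, 2.67 CPM (0) in cTEC at P0, 9.58 CPM (4.15) in gp38+CD26+ cells at P0 and 0.164 CPM (0) in CD31+ cells at P0 in the highest library. Cfb was at 8.01 CPM (1.92) in cTEC at 4 weeks in the highest library. Serping1 was at 327 CPM (118) in cTEC at 4 weeks and 92.2 CPM (49.4) in mTEChi at 4 weeks in the highest library. Cd55 was at 20.9 CPM (6.47) in Ly51+gp38- cells at 4 weeks and 3.17 CPM (1.16) in Ly51+gp38- cells at P0 in the highest library. The cTEC values at 4 weeks, of C1s1, C2, C4b, C7, Cfb and Serping1, all came from replicate 6, whose markers of other cells stood at 2812 CPM for fibroblasts and 2350.4 CPM for mesothelium, where the other 5 libraries held 452 to 1535 and 6.87 to 527 CPM.

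The difference between TEC and NETS changed with age for C7 by a test of the change itself (log2 −6.62 ± 1.26, adjusted p = 1.4e-04 by edgeR, n = 6 libraries per group and 5 for gp38+CD26+ at 4 weeks). C7 was at or near 0 in many P0 libraries on both sides, so this fitted value is no measure of size. The gp38+CD26+ library at 4 weeks that entered no comparison held 5 counts of Serping1 among its 25702 gene counts, above the limit of 3 that a count of 0 allows, and 1 count each of C3 and C7. As a share of gene counts its Serping1 lay below every mesenchymal library in the fit at 4 weeks. With a profile unlike its own population, it is not read as a level of gp38+CD26+ cells.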

How the results depend on the processing

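The counts of members called stayed within 1.5 times the value in the report in all but 7 of 120 recomputed bulk counts. The change of TEC against NETS with age was called for 3 members by DESeq2 (C7, C3 and Cd55) and 2 with CD31+ left out of NETS in place of 1, age in cTEC for 3 in place of 6 without cTEC 4 weeks replicate 6, age in mTEC for 2 in place of 4 with the library of low depth (C1ra and Serping1 lost), and gp38+CD26+ against gp38+CD26- at 4 weeks for 1 with DESeq2's size factors and 1 by DESeq2 in place of 0 (Cd55). Of single bulk values, 1028 kept direction and call, 11 gained a call, 11 lost one and 30 changed sign.

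With CD31+ left out, chosen after seeing the data, C3 turned to −1.08 at P0 and −2.46 at 4 weeks, and the change with age turned for C3 (−1.39), C1s1 (1.18), C1ra (0.700), C2 (−0.0576), Cfb (−0.0720) and Serping1 (0.0152). C7 at P0 was 1.04e-04 by DESeq2. C1ra between fibroblasts at P0 was −0.0197 with DESeq2's size factors and −0.0197 by DESeq2, and C1s1 between cTEC and mTEC at 4 weeks −0.0602 and −0.0592. With the library of low depth the change of C1ra was 0.0138, C1s1 with age in gp38+CD26+ cells −0.104 and Serping1 between fibroblasts at 4 weeks −0.0503. Apart from C3, none of these was called. C4b at P0 was also called with the title prefix as a term (−2.58), by DESeq2 (−2.22) and without CD31+ (−3.19). The causes were not tested.

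Leaving out 1 library gave 5 calls at P0, 9 at 4 weeks and 1 for the change. Beyond the gp38+CD26+ libraries at 4 weeks, the libraries left out (cTEC replicate 6 and mTEC replicate 3 at 4 weeks, gp38+CD26- replicate 6 at P0) were chosen after seeing the data. Ranges with values of the other sign than with all libraries were −0.0884 to 0.0908 for the change of C1ra, −0.181 to 0.481 for C2 and −0.427 to 0.122 for Cfb, −0.0561 to 0.267 for C1s1 with age in gp38+CD26+ cells, −0.322 to 0.156 for C4b between fibroblasts at 4 weeks, and −0.350 to −0.133 for C1s1 (0.0147 with all libraries), −0.272 to 0.985 for C4b and −0.271 to 2.40 for C7 between cTEC and mTEC at 4 weeks. Without gp38+CD26- P0 replicate 6, C4b with age was 6.86 and called, and Cd55 2.43 and not called.

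In the age series, pairs called ranged over 102 to 120 in place of 116 at 4 weeks against P0 and 33 to 70 in place of 59 at P0 against E16.5 when 1 library was left out. Of single values there, 1596 kept direction and call, 96 gained a call and 120 lost one. With at least 50 cells in place of 20 the pairs called were 90 and 60. The replicate block gave 120 and 68 pairs. Same-numbered libraries deviated together with r of −0.0893 to 0.299, and same-numbered newborn libraries with −0.729 to 0.414, where the block called 0 pairs, so the numbers were not taken as pairs. The title numbers of bulk libraries step by 12 between populations of an age, so position (the number modulo 12) was tried as a replicate block, chosen after seeing the data. Libraries at the same position deviated together with r of −0.140 to 0.269 (median 0.0563 at P0 and 0.0374 at 4 weeks). Those at different positions had medians of −0.0100 and −0.00659. At P0 25 of 36 and at 4 weeks 28 of 47 libraries were closest on average to their own of 6 positions, more than an even spread over positions gives. No label says what position means, so it was not taken as pairing, and the p-values of the main fit do not allow for it. With this block gp38+CD26+ against gp38+CD26- at 4 weeks was called for 1 (Cd55), age in Ly51+gp38- for 5 in place of 6 (without Cd55), in gp38+CD26- for 7 in place of 6 (with C4b) and in cTEC for 5 in place of 6 (without C4b), and no other call changed. Values that turned were the change of C1s1 (0.0206) and of Cfb (−0.0782), C2 with age in CD31+ cells (0.676) and C1s1 between cTEC and mTEC at 4 weeks (−0.103), none of them called. The subtype with the highest level was the same for 8 of 9 genes with at least 20 cells, and for 6 over all ages or by the thinned share of cells.

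Counts over all genes that moved by more than 1.5 times were, by DESeq2, 2688 in place of 1326 for the change with age, 1239 in place of 799 for age in mTEC, 1532 in place of 857 between fibroblasts at P0, 29071 in place of 55766 at 4 weeks against P0 and 11000 in place of 25475 at P0 against E16.5, where leaving out an E16.5 library gave 9165 and 10252. For genotype 13 became 32 by DESeq2, 7 with RLE, 233 without a filter, 32 with the block and 3 to 25 without 1 library. Counts of C7, Cfb and C4b were at or near 0 in many libraries at P0, where a difference between populations may go undetected.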
